A study of Mus musculus with 33 samples.

Results

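The Nodal and Lefty signalling genes of mouse embryonic stem cells (ESCs) were followed here across 11 conditions. They are 8 genes, Lefty1, Lefty2, Nodal, Tdgf1, Gdf3, Foxh1, Smad7 and Skil, of 55487 genes in the count tables, and they were selected by name with the loss of Lefty1 transcripts in triple knockout cells already known. Values of the triple knockout were therefore used in choosing them and are given below as a description, with no test. The study asked what the HP1 proteins, which bind methylated lysine 9 of histone H3, and SETDB1, an enzyme that places this mark, do in ESCs of strain C57BL/6. RNA-seq was done on ESCs lacking HP1α (Cbx5), HP1β (Cbx1) or HP1γ (Cbx3), termed Hp1αΔ/Δ, Hp1βΔ/Δ and Hp1γΔ/Δ, on the double mutants Hp1α/βΔ/Δ, Hp1α/γΔ/Δ and Hp1β/γΔ/Δ, and on triple mutant Hp1α/β/γΔ/Δ cells. The single and double mutants were constitutive knockout ESCs made with CRISPR/Cas9. Triple mutant cells came from Hp1α/βΔ/Δ ESCs with floxed Hp1γ alleles and were collected 72 h after transfection of Cre recombinase. Wild-type ESCs came in sets A and B, which the labels do not distinguish by genotype. Set A was the control of the single mutants, of Hp1α/βΔ/Δ and of Hp1α/β/γΔ/Δ, and set B that of Hp1α/γΔ/Δ and Hp1β/γΔ/Δ. The labels were followed here. A legend of the study instead gives floxed cells transfected with a control vector as the control of the triple mutant. Mean Cbx5 and Cbx1 were 484.4 and 438.8 CPM (counts scaled to the library's size) in set A. They were 452.5 and 388.4 in set B, and 202.6 and 96.56 in Hp1α/βΔ/Δ. Set A thus had wild-type levels of both, and the comparison with it does not isolate the loss of HP1γ. The comparison with Hp1α/βΔ/Δ comes nearer, but these libraries are not described as the vector-transfected floxed cells. Setdb1F/F ESCs, in which loxP sites flank an internal part of Setdb1, were the control of Setdb1Δ/Δ cells. The study designed this part to be cut out by Cre recombinase, which inactivates the gene. Each condition had 3 libraries, 33 in all. How many clones each line stands for is not given. The methods call the libraries of a condition biological replicates, without saying what was repeated for each line, and p-values measure only the spread between these libraries. ESCs were grown on mouse embryonic fibroblast feeders and parted from them by plating on gelatin, so feeder RNA can remain.

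Nodal is a ligand of the TGF-β superfamily. It binds activin receptors together with the co-receptor Cripto, encoded by Tdgf1, and the receptors phosphorylate SMAD2 and SMAD3, which enter the nucleus with SMAD4 and act on DNA with partners such as FOXH1. Lefty1 and Lefty2 are secreted inhibitors of Nodal and are themselves targets of the pathway, so they form a feedback loop. In the early embryo this pathway patterns the epiblast and induces mesendoderm, and in ESCs its components are made without differentiation.

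The libraries held 17330936 to 25743149 counts each (median 21522569). The 8 genes had between 61 counts (Lefty1 in a triple mutant library) and 43861 counts (Tdgf1), so counting error was small for all but the lowest of them. The targeted genes were lower in the single mutants: Cbx5 fell in Hp1αΔ/Δ ESCs (log2 fold change -1.45 ± 0.03, adjusted p = 5e-19), Cbx1 in Hp1βΔ/Δ (-2.10 ± 0.05, adjusted p = 5.4e-10) and Cbx3 in Hp1γΔ/Δ (-1.23 ± 0.04, adjusted p = 1.8e-14). The double mutants had both their targeted genes lower as well. In triple mutant cells Cbx1 (-3.27 ± 0.04) and Cbx3 (-1.48 ± 0.04) were past the fold threshold, while Cbx5 was at 278 to 286 CPM, counts scaled to the library's size (-0.81 ± 0.02), lower than in set A but higher than in Hp1α/βΔ/Δ (199.8 to 208). Setdb1 in Setdb1Δ/Δ cells was at 68.4 to 71.9 CPM against 129.9 to 135, counted over the whole gene. The summed level of 12 ESC markers was 3274 to 3306 CPM in wild-type set A, where the most abundant of 12 feeder fibroblast markers, Thy1, had a mean of 14 CPM. One library stands apart: replicate 2 of Hp1α/γΔ/Δ differed from the other two by a chi-square of 121.6 and 113.9 per gene, while they differed from each other by 2.527. Fitted values of this double mutant are therefore given with and without it.

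Lefty1 and Lefty2 lie next to each other on the plus strand of chromosome 1 (GRCm38; Lefty1 chr1:180935022-180938400, Lefty2 chr1:180893108-180899103), and their coding sequences of 1107 bases are 91.9% identical. Reads of one can therefore be given to the other, and which bases part them is shown here because several results turn on this pair. The longest run that both transcripts share is 140 bases. Of windows of 50 bases, 17.9% of those in the Lefty1 transcript are also in Lefty2. Of windows of 150 bases, the read length stated for the study, none is. The next 60 bases of the second coding exon (chr1:180936568-180936627 in Lefty1, chr1:180894156-180894215 in Lefty2, plus strand, GENCODE M21) hold no difference, and lie within a run that cannot part the genes:
Lefty1 and Lefty2, shared: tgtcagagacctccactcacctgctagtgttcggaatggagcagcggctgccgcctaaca
The next pair, in the first coding exon (chr1:180935143-180935202 and chr1:180893217-180893276), holds 18 differences, which are in capitals, more than any other window of this length within an exon:
Lefty1: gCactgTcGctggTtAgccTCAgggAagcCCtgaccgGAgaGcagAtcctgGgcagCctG
Lefty2: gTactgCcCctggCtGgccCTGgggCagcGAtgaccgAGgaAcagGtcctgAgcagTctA

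Levels of different genes were set against each other only as TPM, a transcript abundance scaled for transcript length. The 6 genes beside the Lefty pair lie apart from each other in the genome, Nodal at chr10:61417972-61425338 (plus strand), Gdf3 at chr6:122605403-122610087 (minus), Tdgf1 at chr9:110939603-110946158 (minus), Foxh1 at chr15:76668225-76669948 (minus) and Skil at chr3:31095058-31122577 (plus), with Smad7 on another chromosome, and none of the 8 overlaps another gene of GENCODE M21. In wild-type set A, Tdgf1 was the most abundant of the 8 with 792 ± 10.5 TPM (SD, n = 3). Lefty1 followed with 370.1 ± 4.39 TPM and Lefty2 with 339 ± 7.58, then Gdf3 with 78.3 ± 1.65. Skil (47.3 ± 1.2) and Foxh1 (45.7 ± 4.61) overlapped in range, while Nodal (35.7 ± 1.6) and Smad7 (16.9 ± 1.82) came last. The inhibitors of the ligand were thus far more abundant as RNA than the ligand. Setdb1F/F ESCs had another order, with Lefty2 at 548 ± 7.76 TPM above Lefty1 at 252 ± 9.63, and Smad7 at 42.7 ± 5.79 overlapping Gdf3. In triple mutant cells the order turned: Foxh1 (174 ± 8.69 TPM) and Tdgf1 (163 ± 4.51) were the highest and overlapped, and Lefty2 (9.15 ± 0.875) and Lefty1 (6.04 ± 0.847) were the lowest.

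**Figure D1:**
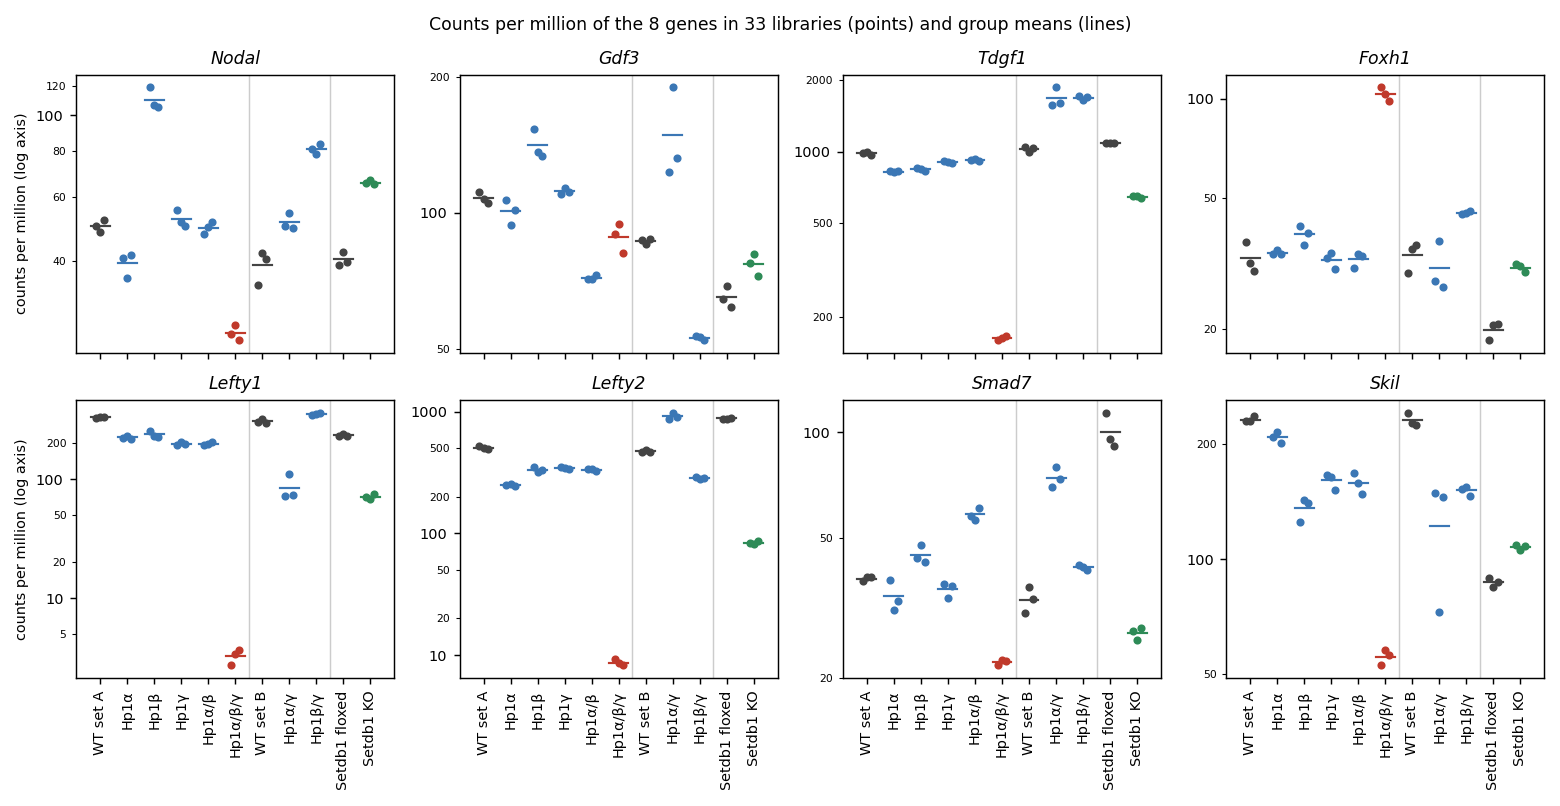
CPM (log axis, with its own range in each panel) of the 8 genes in each of the 33 libraries (points) and the mean of each condition (line); grey, controls; blue, single and double Hp1 mutants; red, triple mutant; green, Setdb1Δ/Δ. Lefty1 lies at 2.73 to 3.65 CPM in triple mutant cells and at 327 to 332 in wild-type set A, and Nodal is highest in Hp1βΔ/Δ ESCs.

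Changes are given as log2 fold changes ± SE of the mutant over its own control, from the quasi-likelihood test of edgeR, with p-values adjusted by Benjamini-Hochberg over all genes tested. A gene is said to rise or fall where the adjusted p was under 0.05 and the absolute log2 fold change over 1. The RNA is from bulk cultures, where fewer cells that make a transcript and less transcript per cell cannot be told apart.

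Nodal rose in both mutants that lack HP1β without HP1α. It was at 119, 106 and 105 CPM in Hp1βΔ/Δ ESCs against 49.8, 48 and 52 in wild-type set A, a log2 fold change of 1.12 ± 0.06, adjusted p = 1.1e-07. In Hp1β/γΔ/Δ ESCs it was at 80.9, 78.6 and 83.4 CPM against 34.5, 42.3 and 40.7 in set B (1.05 ± 0.07, adjusted p = 3.3e-09). The groups were fully separated in both comparisons. The second call sits at the fold threshold: against set A the change was 0.70 ± 0.04 (adjusted p = 1.8e-10), and without replicate 1 of set B it was 0.96 ± 0.05 (adjusted p = 3.3e-10). With HP1α also lost the libraries overlapped the control, at 47.4, 49.6 and 51.3 CPM in Hp1α/βΔ/Δ ESCs (-0.02 ± 0.05, adjusted p = 0.76). Hp1αΔ/Δ ESCs had 40.8, 36 and 41.7 CPM, lower than all 3 controls (-0.33 ± 0.06, adjusted p = 0.00012), and Hp1γΔ/Δ ESCs 55.3, 51.3 and 50 CPM, which overlapped them (0.06 ± 0.05, adjusted p = 0.32). The set B control was itself lower than set A (-0.35 ± 0.07, adjusted p = 0.0019), so the value of Hp1α/γΔ/Δ ESCs, 49.9, 54.2 and 49.3 CPM (0.34 ± 0.12, adjusted p = 0.043), overlapped the set A range, and without replicate 2 the difference from set B was 0.34 ± 0.08, adjusted p = 0.0022. As TPM, Hp1α/γΔ/Δ ESCs had 31.4, 22.6 and 30.55, which overlapped 25, 31.05 and 29.7 in set B. Setdb1Δ/Δ cells had 65.2, 66.6 and 64.8 CPM against 39.2, 42.6 and 39.9 in Setdb1F/F, higher in every library but within the fold threshold (0.69 ± 0.04, adjusted p = 1.5e-10). As TPM, the means were 62.9 ± 0.675 and 27.9 ± 1.28 (SD), a gap past that threshold. In triple mutant cells Nodal was at 25.4, 26.8 and 24.4 CPM, the lowest of all conditions. The log2 fold change was -1.0 ± 0.06 against set A and -0.63 ± 0.08 against set B. As TPM, triple mutant cells had 22.62, 23.48 and 21.77, a smaller gap to set A, which had 35.3, 34.35 and 37.5. In that unit they overlapped replicate 2 of Hp1α/γΔ/Δ, at 22.59.

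Gdf3, a second ligand of the superfamily that also uses Cripto, did not pass the fold threshold in any of the tested comparisons, yet its level differed between mutants in both directions. Hp1βΔ/Δ ESCs had 153, 137 and 133 CPM and Hp1α/βΔ/Δ ESCs 71.4, 71.3 and 73, on either side of 111, 108 and 105 in set A (0.37 ± 0.05, adjusted p = 0.00019 and -0.60 ± 0.04, adjusted p = 3.8e-09). Hp1αΔ/Δ (-0.09 ± 0.05, adjusted p = 0.1) and Hp1γΔ/Δ (0.05 ± 0.04, adjusted p = 0.29) lay nearer to set A. Against 86.9, 85.2 and 87.7 CPM in set B, Hp1β/γΔ/Δ ESCs had 53.4, 53.2 and 52.3 (-0.71 ± 0.05, adjusted p = 4.9e-09). Gdf3 thus differed in opposite directions from its control in Hp1βΔ/Δ and in Hp1β/γΔ/Δ, where Nodal was higher in both. Against set A, the log2 fold change in Hp1β/γΔ/Δ was -1.03 ± 0.04 and past the threshold. In Hp1α/γΔ/Δ ESCs Gdf3 was at 123, 189.7 and 132 CPM (0.73 ± 0.15, adjusted p = 0.0071), and without replicate 2, which held the highest of these, 0.56 ± 0.06 (adjusted p = 1.1e-06). Setdb1Δ/Δ cells, with 77.3, 81.2 and 72.4 CPM, were above Setdb1F/F, with 64.4, 69 and 61.9 (0.23 ± 0.05, adjusted p = 0.00029). As TPM, the gap was larger, with means of 73.5 ± 3.66 and 43.9 ± 1.88 (SD). Triple mutant cells had 89.8, 94.6 and 81.6 CPM. This was below set A (-0.31 ± 0.05) and level with set B, against which the difference was 0.02 ± 0.06. As TPM, triple mutant cells had 86.7, 87.5 and 73.4, which overlapped 79.75, 78.6 and 76.5 in set A.

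Tdgf1, which encodes the co-receptor of Nodal and Gdf3, was lower than its control in some of the tested mutants and higher in others, each time within the fold threshold. The single mutants and Hp1α/βΔ/Δ ranged from 818 to 934 CPM, all below the range of set A, 968 to 998. Their log2 fold changes were -0.25, -0.24, -0.12 and -0.10, in the order HP1α, HP1β, HP1γ and HP1α/β. Both double mutants that lack HP1γ were instead above their control: Hp1α/γΔ/Δ ESCs had 1580.2, 1873 and 1598 CPM and Hp1β/γΔ/Δ ESCs 1710.5, 1658 and 1697, against 1044, 999.7 and 1031 in set B (0.67 ± 0.10, adjusted p = 0.0019, and 0.72 ± 0.03, adjusted p = 1.5e-10). The difference between sets B and A was 0.06 ± 0.03, adjusted p = 0.16. Without replicate 2, the value in Hp1α/γΔ/Δ was 0.63 ± 0.04. As TPM, the gap in this mutant was smaller, 1115.2, 864.3 and 1108.9 against 847.8, 827.3 and 843.8 in set B. Setdb1Δ/Δ cells had 646, 651 and 635 CPM against 1085, 1087 and 1092, a difference of -0.77 ± 0.02, adjusted p = 1e-16. As TPM, this gap was smaller as well, 709.2, 715.8 and 710.5 against 871.1, 864.8 and 865.0. Triple mutant cells had 159, 162 and 166 CPM, lower than every other library, at -2.63 ± 0.02 against set A and -2.54 ± 0.03 against Hp1α/βΔ/Δ ESCs, from whose genotype they were made.

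Foxh1, the forkhead partner of the SMADs, lay near its control in the single mutants and in Hp1α/βΔ/Δ, with log2 fold changes of 0.06, 0.22, -0.01 and -0.02 in the order HP1α, HP1β, HP1γ and HP1α/β, of which only that of Hp1βΔ/Δ passed the adjusted p (adjusted p = 0.037). In set A it was at 36.7, 31.8 and 29.9 CPM. The Hp1β/γΔ/Δ libraries held 44.6, 44.9 and 45.7 CPM against 29.6, 34.9 and 36.1 in set B (0.43 ± 0.07, adjusted p = 9.5e-05), and the Setdb1Δ/Δ libraries 31.5, 30.9 and 29.7 against 18.5, 20.5 and 20.6 (0.62 ± 0.06, adjusted p = 7e-08). The groups were separated in each case, within the fold threshold. As TPM, Foxh1 had means of 52.4 ± 1.83 in Setdb1Δ/Δ and 23.4 ± 1.37 in Setdb1F/F (SD), a gap past that threshold. Hp1α/γΔ/Δ ESCs, with 28, 37 and 26.9 CPM, overlapped set B (-0.17 ± 0.14, adjusted p = 0.35). Without replicate 2 the difference was -0.29 ± 0.09 (adjusted p = 0.01). As TPM, Hp1α/γΔ/Δ ESCs had 30.5, 25.85 and 28.7, all below 39.4, 45.2 and 44.85 in set B. By CPM, Foxh1 was the only one of the 8 genes that was higher in triple mutant cells than in set A: 109, 103 and 98.3 CPM, or 1.63 ± 0.06. As TPM, the triple mutant range of Gdf3 overlapped that of set A.

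Lefty1 fell in Hp1α/γΔ/Δ ESCs and in Setdb1Δ/Δ cells. In Hp1α/γΔ/Δ it was at 71.6, 109 and 74.2 CPM against 299, 322 and 296 in set B, 3.71 times lower (-1.89 ± 0.16, adjusted p = 0.00018). Without replicate 2 the change was -2.07 ± 0.06 (adjusted p = 8.5e-12). In Setdb1Δ/Δ it was at 70.6, 68.4 and 75.3 CPM against 229, 238 and 231, 3.28 times lower (-1.71 ± 0.03, adjusted p = 1.3e-17). These last libraries share no sample with the triple mutant comparison. The single mutants and Hp1α/βΔ/Δ lay between 192 and 256 CPM, below each library of set A (327, 330.1 and 332 CPM). Their log2 fold changes were -0.55, -0.49, -0.73 and -0.74 in Hp1αΔ/Δ, Hp1βΔ/Δ, Hp1γΔ/Δ and Hp1α/βΔ/Δ, each at an adjusted p of 5.9e-06 or lower, and none past the fold threshold. These 4 comparisons share the set A libraries with one another and with the triple mutant. Hp1β/γΔ/Δ was the one tested mutant with more Lefty1 than its control, 344, 354 and 362 CPM (0.21 ± 0.04, adjusted p = 0.0011). Triple mutant cells had 2.73, 3.42 and 3.65 CPM, 102 times less than set A (-6.68 ± 0.06) and 62.1 times less than Hp1α/βΔ/Δ (-5.96 ± 0.07).

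Lefty2 fell most among the tested comparisons in Setdb1Δ/Δ cells, from 875, 876 and 887 CPM in Setdb1F/F to 83.5, 82.2 and 86.2, 10.5 times (-3.40 ± 0.02, adjusted p = 3.1e-23). It also fell in Hp1αΔ/Δ ESCs, with 251, 252 and 244 CPM against 518, 506 and 495 in set A (-1.02 ± 0.03, adjusted p = 1e-16). This call sits at the threshold, and against set B the change was -0.90 ± 0.04. Hp1βΔ/Δ (-0.63), Hp1γΔ/Δ (-0.56) and Hp1α/βΔ/Δ (-0.61) were below every set A library too, between 319 and 348 CPM. The double mutants that lack HP1γ parted: Hp1β/γΔ/Δ had 289, 279 and 284 CPM (-0.73 ± 0.04, adjusted p = 7.5e-10) and Hp1α/γΔ/Δ 876, 982 and 898 (0.92 ± 0.10, adjusted p = 0.00038), on either side of set B at 469, 483 and 462. Neither passed the fold threshold. Without replicate 2 the value in Hp1α/γΔ/Δ was 0.91 ± 0.05. As TPM, the gap was smaller, 491, 354.2 and 507.2 against 325.9, 342.7 and 310.4 in set B. Triple mutant cells had 9.25, 8.53 and 8.21 CPM, 59.6 times less than set A (-5.90 ± 0.04).

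The pair did not move as one. The log2 ratio of Lefty1 to Lefty2 counts within a library does not depend on library size or scaling, and it was -0.66, -0.62 and -0.58 in the set A libraries and -0.65, -0.59 and -0.64 in set B. In Hp1α/γΔ/Δ ESCs it was -3.61, -3.17 and -3.60, a shift of -2.83 (-2.98 without replicate 2), with Lefty1 lower and Lefty2 higher than in the control. In Hp1β/γΔ/Δ it was 0.25, 0.35 and 0.35, a shift of 0.94 the other way. Setdb1F/F ESCs started from -1.93, -1.88 and -1.94, and Setdb1Δ/Δ cells were at -0.24, -0.26 and -0.20 (1.68), where Lefty2 fell further than Lefty1. Smaller shifts were seen in Hp1αΔ/Δ (0.46), Hp1βΔ/Δ (0.13), Hp1γΔ/Δ (-0.17) and Hp1α/βΔ/Δ (-0.12). In all 7 comparisons the count ratios of the mutant libraries lay wholly on one side of the control, which for 3 against 3 gives 0.1 in a two-sided exact permutation test, the smallest p it allows. The log2 ratio of TPM, 0.13, 0.10 and 0.15 in set A, was overlapped by Hp1βΔ/Δ (0.28, 0.15 and 0.11) and Hp1α/βΔ/Δ (0.03, -0.04 and 0.16). In triple mutant cells the count ratio was -1.76, -1.32 and -1.17 and rested on few counts of Lefty1.

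**Figure D2:**
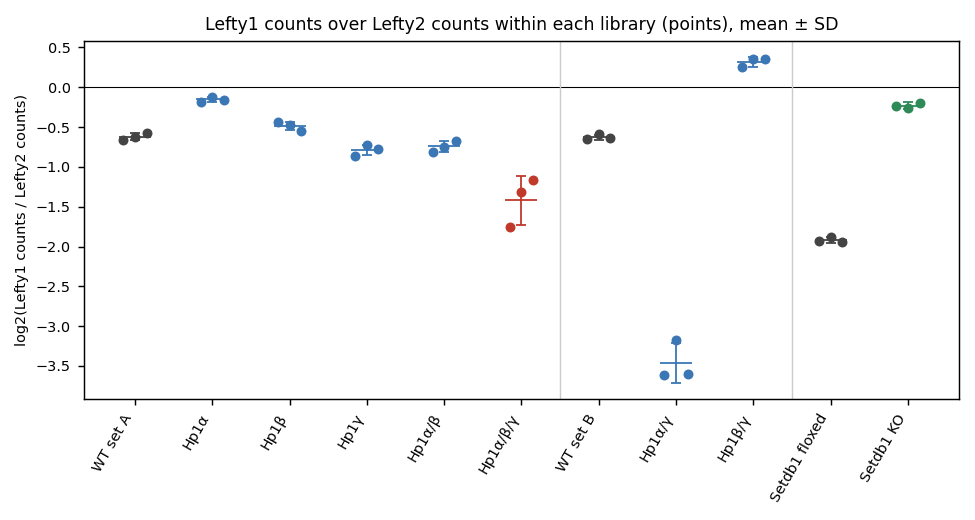
The log2 ratio of Lefty1 to Lefty2 counts in each of the 33 libraries (points), with mean ± SD of each condition (n = 3). Hp1α/γΔ/Δ lies lowest, with a mean of -3.46, and Hp1β/γΔ/Δ highest, with 0.32, while wild-type sets A and B have -0.62 and -0.63.

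Of the feedback inhibitors inside the cell, Smad7, which blocks the receptors, changed in both directions. It rose in Hp1α/γΔ/Δ ESCs, with 69.7, 79.5 and 73.8 CPM against 30.5, 36.2 and 33.4 in set B (1.11 ± 0.11, adjusted p = 0.00031). Without replicate 2 the change was 1.10 ± 0.07, and against set A it was 0.92 ± 0.09, within the threshold. As TPM, Smad7 was at 27.4, 15.95 and 27.9 against 14.2, 16.8 and 16.2 in set B, so replicate 2 lay within the set B range. It fell in Setdb1Δ/Δ cells, from 114, 95.4 and 91.5 CPM to 27.1, 25.6 and 27.8 (-1.91 ± 0.07, adjusted p = 5.1e-14). The Setdb1F/F level was the highest of all conditions, above 37.7, 38.6 and 38.8 CPM in set A, a comparison across tables with no test. Hp1α/βΔ/Δ ESCs had 57.6, 56.4 and 61.1 CPM (0.60 ± 0.05, adjusted p = 5.8e-08), while Hp1αΔ/Δ (-0.16 ± 0.07, adjusted p = 0.056) and Hp1γΔ/Δ (-0.10 ± 0.06, adjusted p = 0.16) did not pass at the adjusted p. Hp1βΔ/Δ (0.21 ± 0.06, adjusted p = 0.012) and Hp1β/γΔ/Δ (0.30 ± 0.06, adjusted p = 0.001) were higher than their controls within the fold threshold. Triple mutant cells had 21.7, 22.5 and 22.3 CPM, -0.82 ± 0.06 against set A, -0.61 ± 0.07 against set B and -1.43 ± 0.06 against Hp1α/βΔ/Δ.

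Skil encodes SnoN, a nuclear repressor of SMAD-driven transcription. It was below its control in all 6 single and double Hp1 mutants, though never past the fold threshold. The steps were -0.79 ± 0.05, adjusted p = 8.7e-07 in Hp1βΔ/Δ, with 125, 143 and 140.4 CPM against 230.0, 229.9 and 237 in set A, and -0.61 ± 0.05, adjusted p = 4.2e-08 in Hp1β/γΔ/Δ, with 153, 155 and 146 against 242, 228 and 224 in set B. Hp1γΔ/Δ (-0.53 ± 0.04) and Hp1α/βΔ/Δ (-0.56 ± 0.04) had smaller differences, and Hp1αΔ/Δ was nearest to its control (-0.15 ± 0.03). In Hp1α/γΔ/Δ the value rested in part on replicate 2: the libraries held 149, 72.9 and 146 CPM (-0.94 ± 0.28, adjusted p = 0.026), and without it the change was -0.65 ± 0.06 (adjusted p = 2.3e-07). Without replicate 1 or 3 of the mutant it was -1.11 ± 0.30 (adjusted p = 0.024) and -1.09 ± 0.31 (adjusted p = 0.033), past the fold threshold. In Setdb1Δ/Δ cells Skil was higher, 109, 106 and 108 CPM against 89.3, 84.6 and 87.4 (0.30 ± 0.03, adjusted p = 2.4e-07). As TPM, the gap was larger, with means of 30.1 ± 1.02 and 17.3 ± 0.485 (SD). Triple mutant cells had 52.8, 57.9 and 56.2 CPM, -2.09 ± 0.04 against set A.

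**Figure D3:**
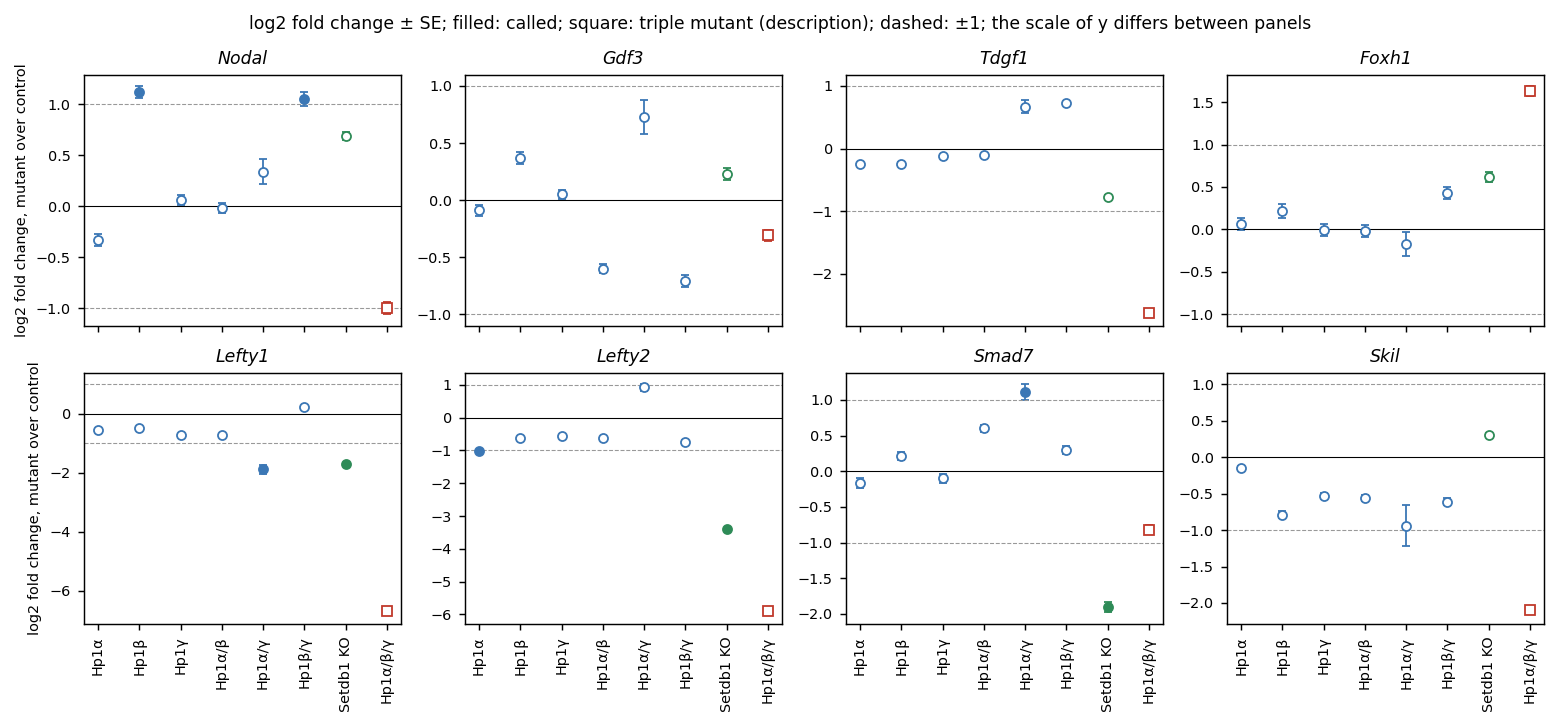
log2 fold change (y axis, own range in each panel) ± SE of each gene in 8 comparisons, from edgeR; filled points were called, open points were not, and red squares are the triple mutant, shown as a description. Filled points are Lefty1 and Smad7 in Hp1α/γΔ/Δ and Setdb1Δ/Δ, Lefty2 in Hp1αΔ/Δ and Setdb1Δ/Δ, and Nodal in Hp1βΔ/Δ and Hp1β/γΔ/Δ.

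Counted by comparison, between 0 and 3 of the 8 genes were called in a tested mutant. In Hp1αΔ/Δ, 1 of 8 was called (Lefty2), where 4.87% of all genes tested were, and 5 passed the adjusted p alone, where 45% of all genes did. In Hp1βΔ/Δ 1 was called (Nodal; all genes 9.1%) and 8 passed the adjusted p (all genes 51.1%). In Hp1γΔ/Δ none was called by edgeR or by DESeq2 (all genes 5.59%), 4 had an unadjusted p under 0.05, and 4 passed the adjusted p (all genes 46.7%). Hp1α/βΔ/Δ also had none called by either tool (all genes 8.15%), with 6 at an unadjusted p under 0.05 and 6 past the adjusted p (all genes 43.4%). The median size of the log2 fold changes of the 8, without sign, was 0.21, 0.43, 0.11 and 0.58 in these 4, beside 0.22, 0.31, 0.23 and 0.23 over all genes.

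In Hp1α/γΔ/Δ 2 of 8 were called (all genes 23.1%; also 2 without replicate 2) and 7 passed the adjusted p (all genes 46.5%). In Hp1β/γΔ/Δ 1 was called (all genes 11.9%) and 8 passed the adjusted p (all genes 51.7%). In Setdb1Δ/Δ 3 were called (all genes 29.9%) and 8 passed the adjusted p (all genes 78.9%). The called share was thus near that of all genes in Hp1α/γΔ/Δ, in Hp1β/γΔ/Δ and in Setdb1Δ/Δ, as it was in Hp1βΔ/Δ. The median sizes were 0.83 (0.64 without replicate 2), 0.66 and 0.73, beside 0.51, 0.26 and 0.57 over all genes. In the triple mutant, on which the genes were chosen, 5 of 8 were past a log2 fold change of 1 in either direction, where 42.6% of all genes were.

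Markers of other cell types moved with some of these comparisons. In Hp1α/γΔ/Δ, 7 of 9 tested feeder fibroblast markers were lower and their sum was 20.8 to 23.2 CPM against 61.6 to 74 in set B. Postn, at 0 counts in every library there, was only at 0.0456 to 0.179 CPM in set B and was not tested. Of 12 ESC markers 6 were higher (5124 to 7421 against 3046 to 3118 CPM). Replicate 2 holds the highest of these ESC sums, the others being 5124 and 5288, and without it the feeder, ESC and trophoblast counts were again 7 of 9, 6 of 12 and 3 of 5. In Setdb1Δ/Δ, 4 of 8 primitive endoderm markers were lower and 1, Foxa2, was higher (3.19 ± 0.46). Their sum was 36.1 to 39.7 against 198 to 205 CPM, of which Lama1 alone had means of 26.8 and 177.7. There, 3 of 12 ESC markers were lower (5019.9 to 5058 against 7506 to 7555). Of 5 feeder markers tested, 3 were lower and 1, Col6a1, was higher (3.23 ± 0.34), with a sum of 7.63 to 8.16 against 12.8 to 13.6. Trophoblast markers, of which 3 of 7 reach 5 CPM in set A as well, were higher in Hp1βΔ/Δ (5 of 6 tested; 442 to 511 against 132 to 142 CPM), Hp1α/βΔ/Δ (5 of 6; 565 to 577) and Hp1β/γΔ/Δ (4 of 6; 792 to 798 against 222 to 235), and lower in Hp1α/γΔ/Δ (3 of 5; 71.2 to 92.7). Mesendoderm markers, 5 of 6 of which are also in the pathway lists, were higher in Hp1α/βΔ/Δ (3 of 5; 18 to 19.3 against 8.36 to 10.2 CPM) and Hp1β/γΔ/Δ (3 of 4; 24.9 to 26.7 against 9.97 to 12.8). In triple mutant cells 8 of 12 ESC markers were lower (sum 1544 to 1585 CPM) and 1, Tbx3, was higher (1.06 ± 0.13). Of 6 primitive endoderm markers 4 were higher although their sum was lower (58.6 to 63.6 against 164 to 169.5 CPM), with Lama1 at -1.96 ± 0.04. Of 7 trophoblast markers 6 were higher (283 to 296 CPM). Of 9 feeder markers 5 were lower (sum 18.1 to 21.5 CPM) and 1, Col3a1, was higher (2.55 ± 0.29). Their part in the values of the 8 genes was not tested.

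The loss of HP1α and of HP1β did not add up on the log2 scale. For each of the 8 genes the interaction, the change in Hp1α/βΔ/Δ less the sum of the single changes, passed at an adjusted p under 0.05 over 12 libraries, where 45% of all genes did. Nodal was the gene called in Hp1βΔ/Δ: the changes of -0.33 and 1.12 sum to 0.79, while Hp1α/βΔ/Δ measured -0.02 (interaction -0.81 ± 0.09, adjusted p = 7e-07). Lefty2 was -1.64 as a sum and -0.61 as measured (1.04 ± 0.05, adjusted p = 2.9e-11), beside -1.02 for the loss of HP1α alone and -0.63 for that of HP1β alone. Gdf3 lay at -0.60 where the sum was 0.27 (-0.87 ± 0.08). Smad7 lay above its sum (0.56 ± 0.10), as did Lefty1 (0.32 ± 0.06), Tdgf1 (0.40 ± 0.04) and Skil (0.38 ± 0.07). For Foxh1 (-0.30 ± 0.10, adjusted p = 0.025) the call was lost on leaving out any of 6 of the 12 libraries: replicate 1 or 3 of Hp1βΔ/Δ, replicate 2 of Hp1αΔ/Δ, replicate 1 of Hp1α/βΔ/Δ, or replicate 2 or 3 of set A, with adjusted p from 0.05 to 0.075.

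**Figure D4:**
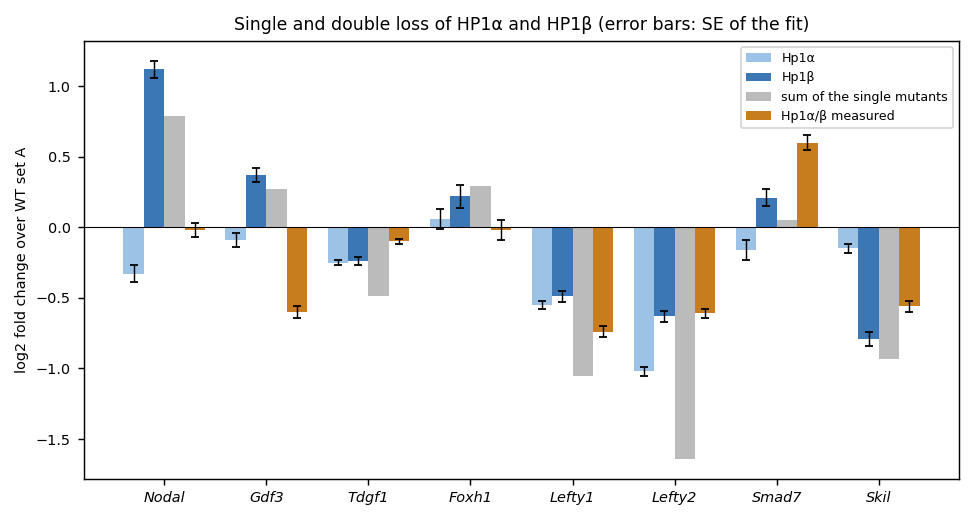
log2 fold change over wild-type set A of each gene in Hp1αΔ/Δ, Hp1βΔ/Δ and Hp1α/βΔ/Δ (error bars, SE of the fit, 3 libraries a group) and the sum of the single changes (grey). The measured double mutant (orange) lies at -0.02 for Nodal where the sum is 0.79, and at -0.61 for Lefty2 where the sum is -1.64.

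Wild-type sets A and B, which carry the same genotype label, give a scale for differences between cultures with no named mutation. None of the 8 genes was called between them by edgeR or DESeq2 (all genes 5.68%), 5 had an unadjusted p under 0.05, and 4 passed the adjusted p (all genes 24.8%). Nodal (-0.35 ± 0.07) and Gdf3 (-0.32 ± 0.05) were lower in set B. Their size was close to that of the changes of Nodal in Hp1αΔ/Δ (-0.33) and Hp1α/γΔ/Δ (0.34) and of Gdf3 in Hp1βΔ/Δ (0.37). Measured against set B, Nodal in Hp1αΔ/Δ stood at 0.03 ± 0.08. Smad7 differed by -0.19 ± 0.07, Lefty1 by -0.11 ± 0.04 and Lefty2 by -0.10 ± 0.04, while Skil, Foxh1 and Tdgf1 differed by 0.00, 0.04 and 0.06.

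Around these 8 genes, 53 other genes of the pathway were counted in lists of ligands and extracellular inhibitors, of receptors and processing enzymes, of SMADs and their regulators, and of target genes. In Setdb1Δ/Δ cells 43 were tested, 6 rose (all genes 18.5%) and 9 fell (all genes 11.4%), with a median log2 fold change of -0.08 beside 0.01 over all genes. Of those that reached 5 CPM in either group, Eomes, a T-box gene of mesendoderm, fell most (-3.20 ± 0.21, adjusted p = 1.5e-10), with 0.524 to 1 CPM against 6.67 to 7.53 in Setdb1F/F. Pcsk6, which encodes the proprotein convertase PACE4 that cleaves the Nodal precursor, went from 96.6, 90.6 and 100.2 CPM to 12.3, 14.1 and 12.2 (-2.90 ± 0.06, adjusted p = 8.6e-18). Dact2, which promotes turnover of Nodal receptors (-2.06 ± 0.06, adjusted p = 2.8e-15), Bmp4, a ligand of the BMP branch (-1.72 ± 0.05, adjusted p = 8.7e-16), and Inhbb, a subunit of activin B (-1.27 ± 0.04, adjusted p = 2e-15), fell as well. Of the signal transducers, Smad3 (-1.27 ± 0.09, adjusted p = 4.9e-10) and the type I receptor gene Acvr1b (-1.04 ± 0.04, adjusted p = 4.2e-13) fell, and the type I receptor gene Tgfbr1 rose, with 119.6 to 126 CPM against 39.9 to 45.2 (1.49 ± 0.04, adjusted p = 1.9e-15). Of the target genes, Ldlrad4, an inhibitor of SMAD phosphorylation, fell (-1.05 ± 0.10, adjusted p = 5e-08). The calls of Acvr1b and Ldlrad4 sit at the fold threshold. With at least 10 counts required in every library they were -0.98 and -0.99, and Ldlrad4 without replicate 1 of Setdb1Δ/Δ was -0.96.

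In triple mutant cells 45 of the 53 were tested, and 42.3% of all genes were called. Of the 53, 7 rose (all genes 25.1%) and 15 fell (all genes 17.1%). Of the 14 target genes 10 were tested, of which 7 fell and 1 rose. Otx2 (-1.56 ± 0.21, adjusted p = 1.6e-06), Ldlrad4 (-1.32 ± 0.17, adjusted p = 7.7e-07), Tgif1, a corepressor of SMADs (-1.27 ± 0.04, adjusted p = 1.1e-15), and Eomes (-1.04 ± 0.19, adjusted p = 5.5e-05) were among those that fell. The receptor genes split: the type II receptor gene Acvr2b fell (-1.88 ± 0.07, adjusted p = 9.9e-15) while Acvr2a rose (1.26 ± 0.07, adjusted p = 2.5e-12), Acvr1b fell (-1.27 ± 0.08, adjusted p = 9.4e-12), and Tgfbr3, which encodes betaglycan, rose (2.37 ± 0.13, adjusted p = 1.7e-12). Among ligands, Tgfb2 rose, with 29.6 to 32.7 CPM against 1.78 to 1.99 in set A (4.04 ± 0.11, adjusted p = 5.8e-17) and Bmp4 rose (2.15 ± 0.10, adjusted p = 2.9e-13). Gdf1, a partner of Nodal whose gene shares a transcript with Cers1 so that their reads may be mixed, fell (-2.15 ± 0.25, adjusted p = 1.6e-07). Dand5, an extracellular inhibitor of Nodal, rose (1.70 ± 0.16, adjusted p = 1.2e-08). Ski, the paralogue of Skil, fell as well (-1.50 ± 0.04, adjusted p = 2.1e-16), as did Pcsk6 (-1.29 ± 0.08, adjusted p = 6.5e-12) and Tmeff1, which encodes a membrane protein that binds Cripto (-1.03 ± 0.05, adjusted p = 4e-13), while Dact2 rose (1.03 ± 0.07, adjusted p = 3.2e-11). Some of these calls sit at the fold threshold. Dact2 was 1.0 without replicate 1 of the triple mutant, 0.95 without replicate 3 of set A and 0.99 with no filter. Eomes was -0.87 without replicate 2 of the triple mutant, -0.96 without replicate 2 of set A and -0.94 where each library had to hold 10 counts, a filter under which Tmeff1 was -0.93. Ldlrad4 was -0.81 against set B.

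The double mutants differed from each other in the same lists. In Hp1α/γΔ/Δ, 6 of 45 tested genes rose (all genes 6.75%) and 11 fell (all genes 16.3%). Bmp4 was at 33.7, 39.3 and 32.5 CPM against 4.03, 3.98 and 4.14 in set B (3.07 ± 0.12, adjusted p = 2e-05), and Smad3 fell (-2.52 ± 0.20, adjusted p = 0.00014). Without replicate 2 these were 3.03 ± 0.10 and -2.32 ± 0.11, and 17 pathway genes were called, the count with it. Pcsk6 rose (1.04 ± 0.13, adjusted p = 0.00073), where it had fallen in Setdb1Δ/Δ and triple mutant cells. It was 1.15 ± 0.07 without replicate 2, but 0.99 without replicate 1 of the mutant, 1.0 without replicate 1 of set B and 0.84 against set A. Acvr2b fell (-1.36 ± 0.35, adjusted p = 0.017), with 37.4, 15 and 41.5 CPM, the lowest of them in replicate 2, without which it was -1.01 ± 0.07, adjusted p = 2.2e-08. Leaving out replicate 1, 2 or 3 of set B ended this call (adjusted p = 0.053, 0.058 and 0.051). In Hp1β/γΔ/Δ, 6 of 46 rose (all genes 7.32%) and 3 fell (all genes 4.54%), and 5 of the 10 target genes tested were among those that rose. In Hp1α/βΔ/Δ, 7 of 47 rose (all genes 2.96%) and 0 fell (all genes 5.19%). Of the 46 tested in each single mutant, 4 were called in Hp1αΔ/Δ (all genes 4.87%), 6 in Hp1βΔ/Δ (all genes 9.1%) and 3 in Hp1γΔ/Δ (all genes 5.59%), in either direction. Otx2 rose in all 4 of these (2.47, 1.26, 1.94 and 2.0 in HP1α, HP1β, HP1γ and HP1α/β mutants). Otx2 in Hp1βΔ/Δ was 0.44 against set B, past no threshold of fold. Inhbb rose in the same 4 mutants (1.52, 1.70, 1.22 and 2.24) and stayed low, at 3.11 to 8.41 CPM against 1.25 to 1.85 in set A. These 4 comparisons share the set A libraries. Against set B, Inhbb rose in Hp1α/γΔ/Δ too, with means of 5.36 and 0.948 CPM (2.45 ± 0.29, adjusted p = 0.00058). Its fit without replicate 2 is not given here. In Hp1β/γΔ/Δ it was not called (0.46 ± 0.31, adjusted p = 0.23).

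**Figure D5:**
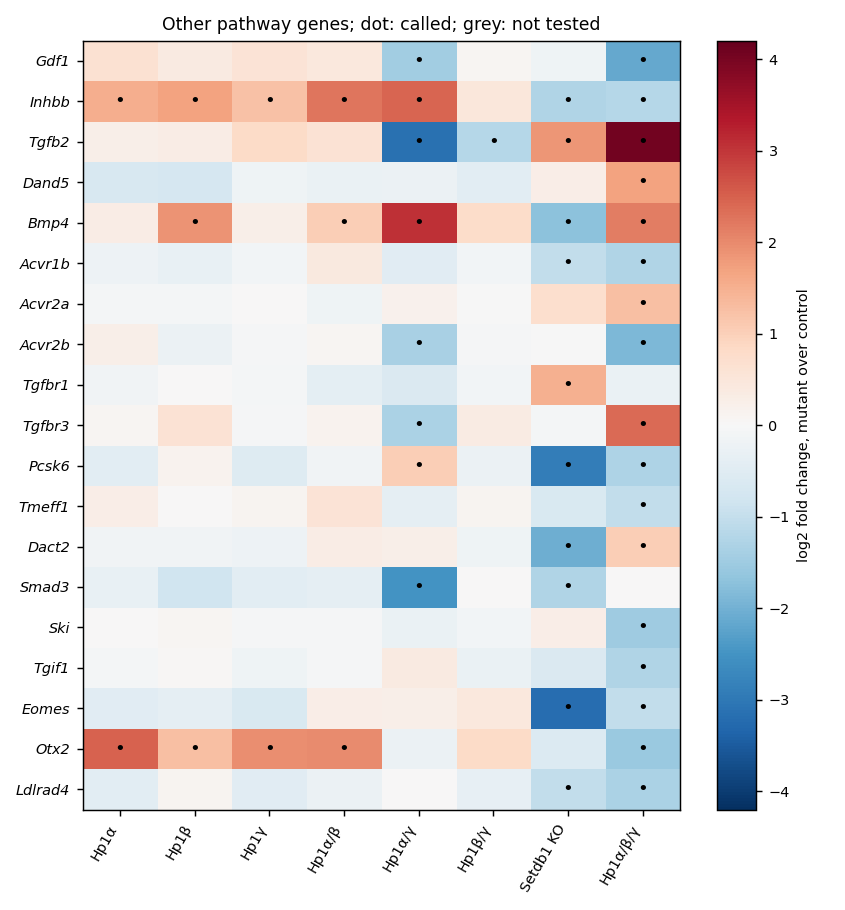
log2 fold change (colour) of 19 other pathway genes that were called in the triple mutant or in Setdb1Δ/Δ and reached 5 CPM in one of its groups, in 8 comparisons; a dot marks a called change. Otx2 and Inhbb are called in all 4 of the first columns, and Inhbb in Hp1α/γΔ/Δ as well. Pcsk6 is 1.04 in Hp1α/γΔ/Δ and -2.90 in Setdb1Δ/Δ.

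Over the 11 condition means of log2 CPM, the levels of Lefty1 and Lefty2 had a Pearson r of 0.85 and a Spearman rho of 0.31. Without the triple mutant r was 0.27 over 10 means, so the first value rests on that one condition. The pairs Lefty2 and Smad7 (0.76 over 11 and 0.77 over 10) and Lefty2 and Tdgf1 (0.91 and 0.63) kept more of theirs. Nodal and Lefty1 had 0.53 and -0.03. These are descriptions over conditions that share lines and tables. Of 13543 genes with at least 5 CPM in the highest condition, those whose means were most like Lefty1 were Dpy19l1 (r = 0.984), Slc45a4 (0.978), Pbrm1 (0.976), Pacsin2 (0.974) and Pcgf3 (0.972). Each was lowest in triple mutant cells, and their range was narrower than that of Lefty1: Dpy19l1 went from 74.4 CPM in Hp1αΔ/Δ to 27.2 in the triple mutant. Lefty1 itself had a mean of 3.265 CPM there, against 71.43 in Setdb1Δ/Δ, its next lowest condition. The r values of these genes include the triple mutant and were not computed without it. They therefore cannot show whether the likeness to Lefty1 holds over the other conditions. The genes most like Nodal, again with the triple mutant included, were Laptm4a (0.87), Slc35a2 (0.863), Rabl2 (0.858), Zfp46 (0.851) and Dnal1 (0.844).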

How the data were processed

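RNA-seq was measured in 33 libraries of 11 conditions. The deposited tables hold, per the file headers, expected counts per gene (estimated, 87.1% of values whole) and TPM, scaled by the authors for length and depth. The submitters' processing notes name TopHat2 2.1.1, RSEM, edgeR and GRCm38.p5, with no role given, and whether counting used strand is not given in the sources used here. Columns of the authors' fold changes, p-values and mean TPM were not used. The wild-type columns repeated across the 8 tables were identical and were used once, but all tables may not have been counted alike, so levels set across tables are descriptions.

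Expected counts were rounded to whole numbers. Each comparison was fitted alone over all genes with edgeR 4.0.16 (filterByExpr with a minimum count of 10, TMM, quasi-likelihood F test, Benjamini-Hochberg adjustment), with R 4.3.3. DESeq2 1.42.0, other size factors, other filters, a replicate block, a joint fit, the other wild-type set and leaving out each library were alternatives. Calls needed both an adjusted p under 0.05 and a log2 fold change over 1 in size. CPM uses TMM-scaled library sizes. TPM does not, and directions or sides of the fold threshold can differ between these units, as given above for some genes. TMM factors were 1.163 to 1.169 in triple mutant libraries and 0.7857 to 0.9125 in those of Hp1α/γΔ/Δ. They were 1.12 to 1.125 in Setdb1Δ/Δ and 0.937 to 0.9426 in Setdb1F/F. Total counts of 17330936 to 25743149 set the counting precision, which covers counting error only. Coordinates and Lefty sequences come from GENCODE M21, which matched 55141 of 55487 genes.

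The 8 genes, the pathway lists and the marker lists were chosen with earlier results of these data known. The 8 genes are named throughout. Pathway genes are named where they were called in triple mutant or Setdb1Δ/Δ cells with at least 5 CPM in the higher group. Those shown for the other mutants were picked from these after their values were seen. Nearest patterns were the 5 genes of highest Pearson r over condition means of log2(CPM + 0.5). Results of some pathway genes are not reported here.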

Additional observations from a re-analysis of the deposited data

Results flagged for a closer look

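The effect of losing HP1β differed between wild-type and Hp1αΔ/Δ ESCs for each of the 8 genes, by the edgeR interaction test over 12 libraries with Benjamini-Hochberg adjustment, a test that 45% of all genes also passed. The interaction, in log2 units with its SE, was 1.04 ± 0.05 for Lefty2 (adjusted p = 2.9e-11), 0.32 ± 0.06 for Lefty1 (adjusted p = 0.00033), 0.40 ± 0.04 for Tdgf1 (adjusted p = 7e-08), 0.56 ± 0.10 for Smad7 (adjusted p = 0.00011) and 0.38 ± 0.07 for Skil (adjusted p = 0.00042). It was negative for Nodal, -0.81 ± 0.09 (adjusted p = 7e-07), for Gdf3, -0.87 ± 0.08 (adjusted p = 6.4e-08), and for Foxh1, -0.30 ± 0.10 (adjusted p = 0.025). The Hp1αΔ/Δ, Hp1βΔ/Δ and Hp1α/βΔ/Δ ESCs are separate lines, so the line and the genotype cannot be told apart here.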

How the results depend on the processing

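Of the 8 genes over all comparisons and the interaction, 532 values under a changed setting and 554 with 1 library left out kept their direction and side of the threshold, or, for the triple mutant, moved by less than the spread between libraries. Of the others, 6 and 11 turned direction, 3 and 7 lost a call, 2 and 2 gained one, and 17 and 2 moved further. Against the other wild-type set, 0 genes were called in Hp1αΔ/Δ (Lefty2 -0.90), 1 in Hp1α/γΔ/Δ (Smad7 0.92) and Gdf3 in place of Nodal in Hp1β/γΔ/Δ (-1.03 and 0.70). With that set the direction turned for Nodal (0.03), Gdf3 (0.24) and Smad7 (0.05) in Hp1αΔ/Δ, Smad7 in Hp1γΔ/Δ (0.11), Nodal in Hp1α/βΔ/Δ (0.33) and Gdf3 in triple mutant cells (0.02). The cause was not tested. With 1 library left out, values near 0 turned: Foxh1 in Hp1γΔ/Δ ranged from -0.07 to 0.07, Foxh1 in Hp1α/βΔ/Δ from -0.08 to 0.07, Nodal in Hp1α/βΔ/Δ from -0.05 to 0.01, Foxh1 between the wild-type sets from -0.02 to 0.12 and Skil from -0.04 to 0.02. The count of genes called in Hp1β/γΔ/Δ then ranged from 0 to 1, the 0 being without replicate 1 of set B. At the adjusted p alone, which is a looser rule by construction, 5, 8, 4, 6, 7, 8, 8 and 4 of the 8 genes passed in Hp1αΔ/Δ, Hp1βΔ/Δ, Hp1γΔ/Δ, Hp1α/βΔ/Δ, Hp1α/γΔ/Δ, Hp1β/γΔ/Δ, Setdb1Δ/Δ and between the wild-type sets. Of the other pathway genes 24, 22, 27, 22, 26, 25, 31 and 36 did in the first 7 of these and in triple mutant cells, against 4, 6, 3, 7, 17, 9, 15 and 22 called. With at least 10 counts in every library, 11 pathway genes were called in Hp1α/γΔ/Δ, since fewer genes were tested.

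Over all genes, this filter gave 469 called against 772 in Hp1αΔ/Δ, 572 against 884 in Hp1γΔ/Δ, 845 against 1292 in Hp1α/βΔ/Δ, 1139 against 1929 in Hp1β/γΔ/Δ, 3058 against 4918 in Setdb1Δ/Δ, 4866 against 7400 in the triple mutant and 386 against 909 between the wild-type sets, and set B as control gave 1438, 2429 and 1693 in Hp1αΔ/Δ, Hp1βΔ/Δ (1442 with set A) and Hp1γΔ/Δ. Replicate numbers did not pair the samples, since deviations of same-numbered libraries correlated between -0.042 and 0.051. A replicate block changed 1 call among the 8 genes: Skil in Hp1α/γΔ/Δ passed the fold at -1.02 (adjusted p = 0.02, edgeR), and the block changed no other call among them. Depth limits Lefty1 most, with 61 counts in its lowest triple mutant library.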
